A study of Solanum lycopersicum with 8 samples.

Results

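Transcript levels in the mature leaf of the tomato accession TM were set against the mean of the mature leaves of AV, SK and RJ. The comparison takes in the 4625 probes, of 33750 non-control probes on the array, that were well above background on all 4 leaf arrays and had a value on each of them. A further 5 probes met the background condition but lacked a value on a leaf array. Of the 4625 probes, 657 could be matched to 329 genes, 264 with a name and 65 with a locus symbol only. All other probes are named by their identifier on the array.

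A mature leaf is mainly photosynthetic tissue, and its RNA is dominated by transcripts of light harvesting, the oxygen-evolving complex and carbon fixation. The same tissue carries inducible programmes. Heat shock cognate proteins fold other proteins, NADPH oxidases of the plasma membrane make the reactive oxygen of the respiratory burst, WRKY factors switch on defence transcription, and pathogenesis-related proteins such as chitinases act on pathogens. Jasmonate and abscisic acid are hormones of the responses to wounding and water deficit.

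The study profiled whole mature leaf and whole red ripe fruit of 4 accessions, AV, TM, SK and RJ. AV came from Hyderabad, TM from Kashmir, and SK and RJ from the Chatha and Rajouri areas of Jammu, and the submitters describe them as unlike in the pace of maturation and in fruit carotenoid content. No treatment, genotype at a locus or plant age is given. Every accession is represented by a single leaf sample and a single fruit sample, and whether RNA of several plants was pooled is not stated. There was thus no replicate, the differences below are described without a test, and a difference between accessions cannot be told apart from a difference between single samples. In whole leaves, fewer cells of a type and less RNA per cell cannot be told apart either.

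All leaf arrays lay on slide 1 and no spot was saturated. TM leaf had 8237 probes well above background (24.4%), against 5827 to 6795 on the other leaf arrays (17.3% to 20.1%). The median signal of the true negative control spots was 125 in TM leaf, 128 in RJ leaf, 200 in AV leaf and 344 in SK leaf. AV leaf stood apart from the other leaves. Pearson's r over the 4625 probes lay between 0.789 and 0.813 for its pairs, while TM leaf reached 0.959 with RJ leaf and 0.890 with SK leaf. These coefficients run across probes, which do not count as replicates. All values below are log2 signals relative to the 75th percentile of the array, so 0 means that percentile. Levels of different probes are not compared with each other.

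The leaf label was checked against photosynthesis genes. All 6 of the list on the array were well above background on every leaf array, and none was 2-fold higher or lower in TM leaf. CAB4, which encodes a chlorophyll a/b binding protein, lay at 2.98 in AV, 2.10 in TM, 1.70 in SK and 1.78 in RJ leaf. PsbQ, of the oxygen-evolving complex, lay at 2.37 in AV, 2.78 in TM, 2.20 in SK and 2.14 in RJ leaf, and was thus highest in TM. Of 15 ripe fruit genes 1, the endoglucanase gene Cel2, was measured on all leaf arrays, at a difference of -0.07 from the mean of the other leaves. Array by array, 3 of the 15 were well above background in AV leaf, 2 in TM leaf, 1 in SK leaf and 1 in RJ leaf. None of 4 glandular trichome genes was well above background on any leaf array. Of 6 root and vascular genes, only the phosphate transporter gene PT1 was measured on all leaf arrays. Its difference was 0.03, with -1.85 in TM leaf and -0.44 in RJ leaf. RSI-1, of the same list, was well above background on 3 leaf arrays. It lay at -5.44 in AV, -2.26 in TM, -3.37 in SK and -2.23 in RJ leaf, so that the list was not even across leaves.

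TM leaf deviated least of the 4 leaves. A probe was counted as past the fold when its log2 difference from the mean of the other 3 leaves was at least 1, which is 2-fold. By that count 191 probes were higher in TM leaf (4.13%) and 32 lower (0.692%), 223 in all (4.82%). The same count gave 494 higher (10.7%) and 365 lower (7.89%) for AV leaf, 278 (6.01%) and 343 (7.42%) for SK leaf, and 185 (4%) and 266 (5.75%) for RJ leaf, or 18.6%, 13.4% and 9.75% in all. These 4 counts share arrays and depend on each other. The probes just past the limit in TM leaf had differences of 1.00 and -1.03, and the nearest ones short of it 0.999 and -0.95. The excess of higher over lower probes was seen in TM leaf and, less unevenly, in AV leaf, while SK and RJ leaf had more probes lower than higher.

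**Figure D1:**
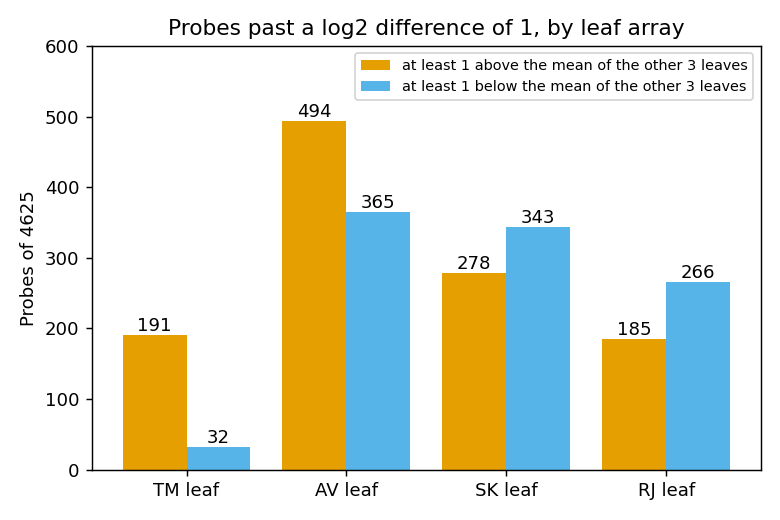
Number of the 4625 leaf probes (vertical axis) that lay at least 1 log2 unit above (orange) or below (blue) the mean of the other 3 leaves, for each leaf array (horizontal axis). TM leaf has 191 higher and 32 lower probes, and AV leaf, with 494 and 365, the most of both.

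The split of these calls depended on the scaling. In TM leaf 85.7% of the 223 probes were higher. Scaling to the 75th percentile over all non-control probes moved the median difference of all probes from 0.05 to -0.14 and gave 113 higher and 56 lower (66.9% higher). The authors' deposited log2 table moved that median to 0.40 and gave 456 higher and 12 lower (97.4% higher).

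Most of the difference lay on the side of the other leaves. Of the 191 higher probes, RJ leaf was the nearest to TM in 152 and AV leaf the farthest in 151, and 126 lay within 0.5 of RJ leaf. The same shares over all 4625 probes are not given, so these counts are not read as particular to the higher probes. The median excess of the 191 over AV leaf was 2.21, over SK leaf 1.28 and over RJ leaf 0.32. Over all 4625 probes these medians were -0.02, 0.11 and 0.13. At least 1 above AV leaf were 177 of the 191, above SK leaf 132 and above RJ leaf 19. Without AV leaf in the mean of the others, 58 of the 191 stayed past the fold, without SK leaf 149 and without RJ leaf 184. The probes that were high in TM leaf were thus in most cases nearly as high in RJ leaf and low in AV leaf.

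**Figure D2:**
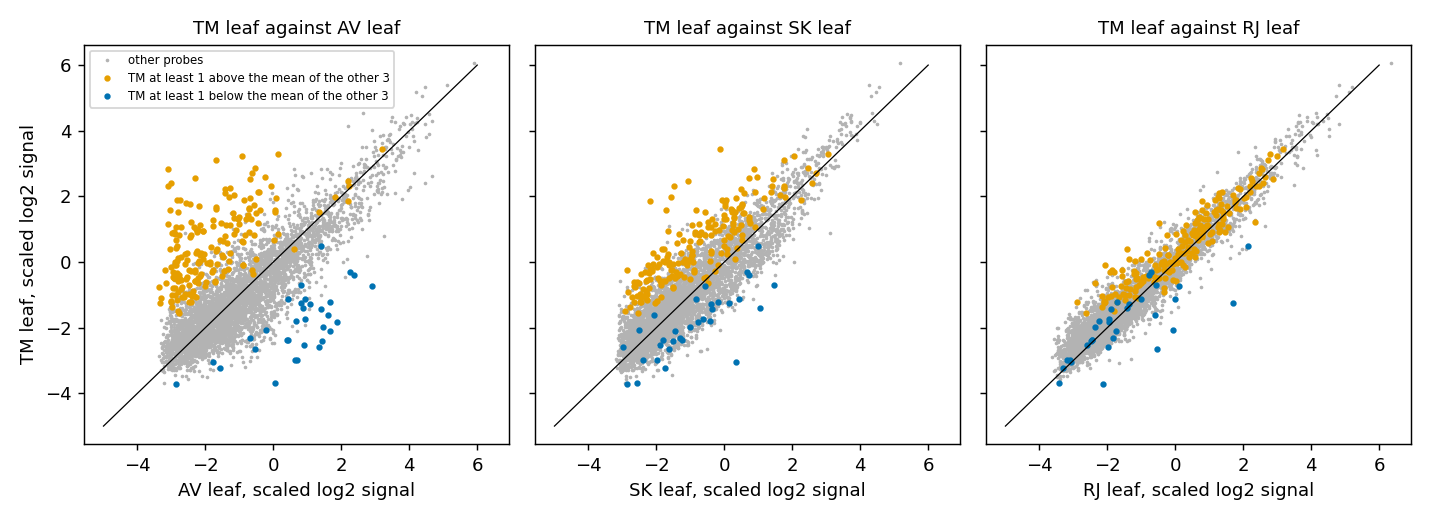
Scaled log2 signal of TM leaf (vertical axes) against AV, SK and RJ leaf (horizontal axes of the 3 panels) for the 4625 probes, with the line of equality. The 191 probes higher in TM leaf (orange) lie far above the line against AV leaf, with a median distance of 2.21, and close to it against RJ leaf, with a median distance of 0.32.

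Pair by pair, TM leaf was at least 1 above AV leaf in 459 probes (9.92%) and below it in 419 (9.06%). Against SK leaf the counts were 408 (8.82%) and 229 (4.95%). Against RJ leaf they were 155 (3.35%) and 35 (0.757%), so that under this scaling these leaves had the fewest probes 2-fold apart. Among the 329 genes, 48 (14.6%) were 2-fold above AV leaf and 31 (9.42%) below it, 46 (14%) and 12 (3.65%) above and below SK leaf, and 14 (4.26%) and 4 (1.22%) above and below RJ leaf. The spread of the differences followed this order, with a standard deviation across probes of 0.90 against AV, 0.68 against SK and 0.43 against RJ leaf.

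Of the 329 genes, 23 were higher in TM leaf (6.99%) and 3 lower (0.912%), with folds of 2.03 to 4.68 among the higher ones. RJ leaf was the nearest leaf in 21 of the 23, and 17 lay within 0.5 of it. The same shares over all 329 genes are not given. Without AV leaf 7 of the 23 stayed past the fold, without SK leaf 16 and without RJ leaf 22. Differences that moved by over 1.5 times without AV leaf included those of LEA14 (to 0.83), SRG2 and WRKY40 (to 0.64 each), CZFP1 (to 0.50), CaM6 (to 0.51), NCED1 (to 0.86), CHI3 (to 0.69) and LOC100191128 (to 0.76). Without SK leaf they included those of AAP2 (to 0.79), ME2 (to 0.74), LOC778320 (to 0.64) and CHI3 (to 0.68). TM leaf held the highest of the 4 values for 80 genes (24.3%) and the lowest for 22 (6.69%).

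Among chaperones and the stress machinery, Hsc70.1, which encodes a heat shock cognate chaperone, lay at -2.83 in AV, 1.88 in TM, 0.05 in SK and 1.75 in RJ leaf. TM and RJ leaf were within 0.14 of each other, SK lay below both and AV far below. The difference of TM from the mean of the other 3 leaves was 2.23, or 4.68-fold, the largest of any gene measured, and it was 0.99 without AV leaf. These values of Hsc70.1 rest on 1 of its 2 probes, the other not being among the probes compared. Averaged over both, Hsc70.1 lay at -4.15 in AV, -0.26 in TM, -2.12 in SK and -0.11 in RJ leaf, with RJ above TM. The small heat shock gene HSP17.8 lay at -2.29 in AV, -1.27 in TM, -2.34 in SK and -1.48 in RJ leaf, a difference of 0.77. HSFA3, which encodes a heat shock transcription factor, was at -1.69 in TM leaf and between -2.96 and -2.01 in the others. By the probes compared, all 3 measured genes of the heat shock list, of 9 on the array, were highest in TM leaf. Of these, 1 was past the fold. Chaperone genes not on that list, named after their values were seen, did not share this. CPN21 was at -0.81 (-0.20 without SK leaf), HSC80 at -0.62 (-0.21 without AV leaf), Hsp90-1 at -0.36 (-0.10 without AV leaf) and HSP100/CLPB at 0.17. BiP/grp78 was positive, at 0.44 (0.13 without AV leaf), but highest in SK leaf.

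Wfi1, which encodes an NADPH oxidase first described as induced by whitefly, lay at -2.95 in AV, 0.87 in TM, -0.78 in SK and 0.57 in RJ leaf. Its difference was 1.92, or 3.80-fold, and 0.98 without AV leaf. LEA14, a late embryogenesis abundant gene also known as Lemmi9, lay at -2.48 in AV, 1.27 in TM, -0.28 in SK and 1.15 in RJ leaf, a difference of 1.80. Both genes had the order of Hsc70.1, with TM and RJ high, SK between and AV low. The AV values of Hsc70.1 and Wfi1 were not far above the lowest signal that was well above background on that array, -3.40. LEA14 had been listed as a seed marker. It was the only gene of its 2-member list that was well above background on any leaf array.

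SRG2 lay at -2.16 in AV, 1.13 in TM, 0.26 in SK and 0.72 in RJ leaf, a difference of 1.53. AGP-1, which encodes an arabinogalactan protein of the cell surface, lay at -2.86 in AV, 0.67 in TM, 0.51 in SK and 0.65 in RJ leaf. Its difference of 1.23 rested on AV leaf and was 0.09 without it. The AV value of AGP-1 was not far above the lowest signal well above background on that array, -3.40. CZFP1, a zinc finger gene, and CaM6, a calmodulin gene, fell outside the rule for named genes and were chosen after their values were seen, to complete the genes past the fold. CZFP1 lay at -2.71 in AV, 1.08 in TM, -0.39 in SK and 1.55 in RJ leaf, so that RJ and not TM held the highest value. CaM6 lay at -0.96 in AV, 1.09 in TM, 0.37 in SK and 0.78 in RJ leaf, a difference of 1.02. All 4 had their lowest value in AV leaf.

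**Figure D3:**
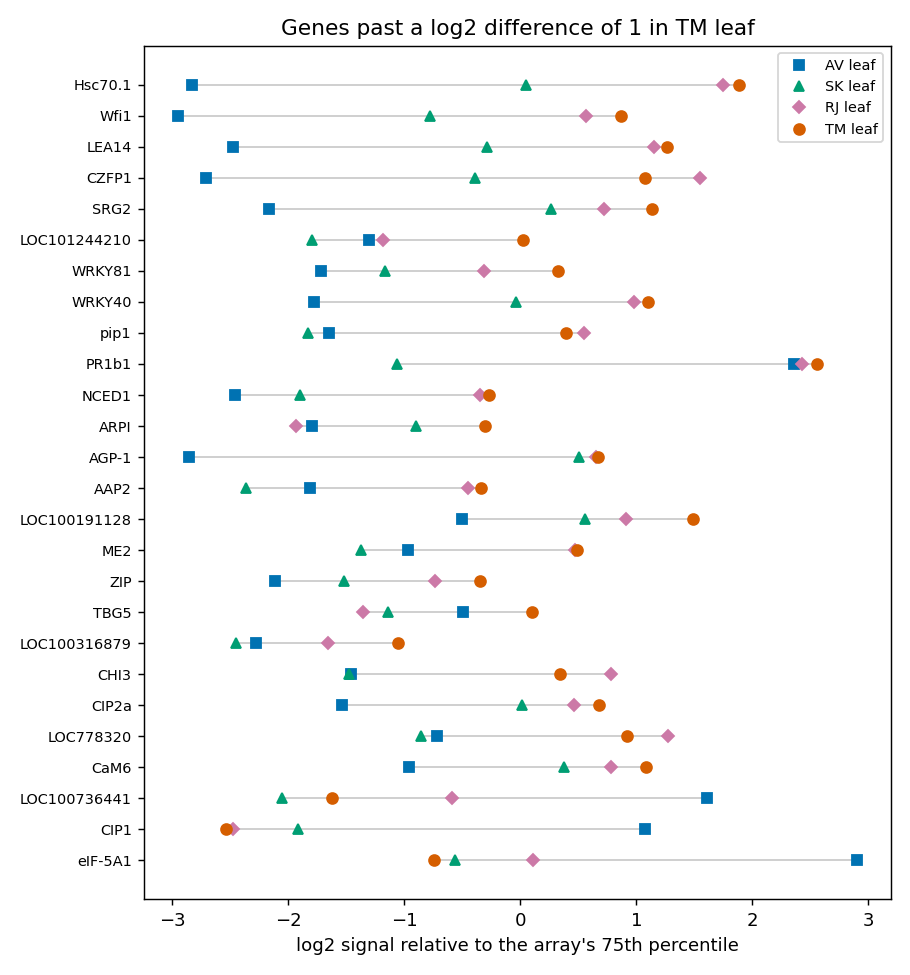
Scaled log2 signal (horizontal axis) of the 26 genes at least 2-fold higher or lower in TM leaf than the mean of the other 3 leaves, with 1 point per leaf array. Genes run from the largest positive difference, Hsc70.1 at 2.23, at the top to the largest negative, eIF-5A1 at -1.56, at the bottom, and RJ points lie next to TM points in most rows.

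Defence genes gave the largest median of the 19 functional lists. Of 20 defence genes on the array 9 were measured, 4 were past the fold and higher, none was lower, and 8 of 9 differences were positive. Over all genes 6.99% were past the fold and higher, and 200 of 329 differences were positive. The median was 0.94, beside 0.10 over all 329 genes, and it ran from 0.75 to 1.30 over the 7 other scalings and background corrections. It depended more on the leaves compared, at 0.45 without SK leaf, 0.69 without AV leaf and 1.35 without RJ leaf. The members differed in which leaf they stood apart from. Their median excess was 0.51 over AV leaf and 1.55 over SK leaf, and it was -0.11 against RJ leaf.

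PR1b1, a pathogenesis-related protein gene, lay at 2.36 in AV, 2.56 in TM, -1.06 in SK and 2.43 in RJ leaf. The 3 high leaves were within 0.20 of each other, SK leaf alone was low, and the difference of 1.31 became 0.16 without SK leaf. WRKY40, which encodes a transcription factor, lay at -1.78 in AV, 1.10 in TM, -0.04 in SK and 0.98 in RJ leaf, a difference of 1.38. The chitinase gene CHI3 lay at -1.46 in AV, 0.34 in TM, -1.47 in SK and 0.78 in RJ leaf, with RJ above TM. The second chitinase gene, CHI9, was at 0.02 in TM leaf and between -1.53 and -0.37 in the others. MLO1, of the family in which loss of function gives powdery mildew resistance, lay at -2.47 in AV, -0.71 in TM, -1.64 in SK and -0.84 in RJ leaf, a difference of 0.94 that was 0.53 without AV leaf. P69B, which encodes a subtilisin-like protease, was low in SK leaf alone, with RJ above TM, and its difference of 0.80 was 0.17 without SK leaf. TLRP (0.27) and GluB (-0.31), a glucanase gene, did not reach the fold, and both changed sign with 1 leaf left out, at -0.36 without SK leaf and 0.28 without AV leaf.

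The gene listed as pip1 lay at -1.65 in AV, 0.40 in TM, -1.84 in SK and 0.55 in RJ leaf, a difference of 1.38. This symbol is used for an aquaporin and for a papain-like protease of defence, and the files do not say which is meant, so that the gene was counted in both lists. Without it the defence list holds 3 genes past the fold. Like CHI3, pip1 separated TM and RJ leaf from AV and SK leaf.

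WRKY81, a transcription factor gene of the same family as WRKY40, was higher in TM leaf than in each of the others. It lay at -1.72 in AV, 0.33 in TM, -1.17 in SK and -0.31 in RJ leaf, a difference of 1.39. Its 4 probes gave 1.24 to 1.72. TM leaf lay 0.64 above the nearest leaf, and the difference was at least 1.07 with any 1 of the other leaves left out. ARPI, of the list of jasmonate and wound genes, lay at -1.79 in AV, -0.31 in TM, -0.90 in SK and -1.94 in RJ leaf, so that here SK was the nearest leaf and RJ the farthest. LOC101244210, known by its locus only, lay at -1.31 in AV, 0.03 in TM, -1.79 in SK and -1.18 in RJ leaf, and it was the only gene of the 329 at least 1 above every other leaf. WRKY81, ARPI and LOC101244210 were the 3 genes of 23 that stayed past the fold whichever of the other leaves was left out.

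In hormone pathways, NCED1, which encodes the carotenoid cleavage enzyme of abscisic acid synthesis, lay at -2.46 in AV, -0.27 in TM, -1.90 in SK and -0.35 in RJ leaf. The difference was 1.31, with TM and RJ leaf 0.08 apart. OPR3, which encodes the reductase of jasmonate synthesis, was highest in TM leaf and fell just short of the fold at 0.96. It lay at -1.36 in AV, -0.65 in TM, -2.34 in SK and -1.12 in RJ leaf. Of the 6 jasmonate genes measured, of 19 on the array, ARPI was past the fold, HPL, an enzyme gene of leaf volatiles, was at 0.51, and the jasmonate receptor gene COI1 was at -0.31, or 0.05 without AV leaf. Of 7 ethylene genes measured, of 29, none was past the fold, and the outermost values turned with 1 leaf. ACO1, of ethylene synthesis, was at 0.82, but lay at -0.91 in AV, -0.59 in TM, -3.08 in SK and -0.23 in RJ leaf, which gives -0.02 without SK leaf. The factor gene ERF4 was at -0.58, and at 0.20 without AV leaf. The median of the jasmonate list was 0.27, as was that of the ethylene list.

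In transport and metabolism, AAP2, an amino acid permease gene, lay at -1.81 in AV, -0.34 in TM, -2.37 in SK and -0.45 in RJ leaf, a difference of 1.20. ME2, a malic enzyme gene, lay at -0.97 in AV, 0.49 in TM, -1.38 in SK and 0.47 in RJ leaf, a difference of 1.12. TM and RJ leaf were close to each other in both genes, as they were in GAD2, a glutamate decarboxylase gene at 0.90. TBG5, a beta-galactosidase gene of the cell wall list, did not follow this order. It lay at -0.50 in AV, 0.10 in TM, -1.15 in SK and -1.35 in RJ leaf, so that AV was the nearest leaf and RJ the farthest. The arginine decarboxylase genes ADC and adc1, of polyamine synthesis, had differences of 0.77 and 0.78, and both were highest in TM leaf. Averaged over all its probes, adc1 was higher in RJ (-1.22) than in TM leaf (-1.56).

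The remaining genes past the fold were known by a short symbol or a locus only. ZIP had a difference of 1.11, with its 6 probes between 1.09 and 1.15, while CIP2a lay at -1.54 in AV, 0.67 in TM, 0.01 in SK and 0.46 in RJ leaf, a difference of 1.03 that was 0.43 without AV leaf. LOC100191128 lay at 1.49 in TM leaf and between -0.51 and 0.91 in the others, and LOC100316879 at -1.06 in TM leaf and between -2.45 and -1.66 in the others. LOC778320 (1.02) was higher in RJ than in TM leaf. LOC543698 (0.95) was the next locus below the fold. On the lower side, the loci after LOC100736441 were LOC100191137 (-0.77), LOC778362 (-0.76), LOC101055519 (-0.70) and LOC101255395 (-0.57), of which LOC778362 alone had its lowest value in TM leaf.

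The 3 lower genes were all marked by a high value in AV leaf. eIF-5A1, which encodes a translation factor, lay at 2.90 in AV, -0.74 in TM, -0.56 in SK and 0.11 in RJ leaf, a difference of -1.56. CIP1 lay at 1.07 in AV, -2.54 in TM, -1.91 in SK and -2.48 in RJ leaf, a difference of -1.43. LOC100736441 lay at 1.61 in AV, -1.62 in TM, -2.06 in SK and -0.59 in RJ leaf, where SK and not TM was lowest. None of the 3 stayed past the fold without AV leaf, where their differences were -0.52, -0.34 and -0.30.

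Below the fold, the lower side held the catalase gene CAT2 (-0.81), the chalcone synthase gene CHS2 of flavonoid synthesis (-0.76), the xyloglucan enzyme gene XTH1 (-0.73), the lycopene cyclase gene LCY1 (-0.64) and the acid invertase gene AI (-0.63). TM leaf held the lowest value in XTH1 but not in CAT2, CHS2, LCY1 or AI. The values of CAT2, LCY1 and AI rested on AV leaf, without which they were 0.20, 0.0038 and 0.09, and that of CHS2 on SK leaf, without which it was -0.17. XTH1 was at -0.28 without RJ leaf. Genes with TM lowest also included HSC80, a chaperone gene of the Hsp90 family (-0.62, with its 14 probes between -0.86 and -0.28), RPL8, a ribosomal protein gene (-0.60), the nucleoside diphosphate kinase gene NDK (-0.47), the expansin gene EXPA4 (-0.46), CYP1, listed as the senescence marker (-0.45), and EBF1, of ethylene signalling (-0.45). Of these, EXPA4 lay 0.31 below the nearest leaf and the others at most 0.24 below it.

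Few probes set TM leaf apart from every other leaf. It lay at least 1 above the highest other leaf in 6 probes (0.130%) and at least 1 below the lowest in 2 (0.0432%). The first group held LOC101244210, measured by A_96_P062331, and 2 probes of 1 transcript without a gene name. Of these, A_96_P134767 lay at -2.97 in AV, -0.31 in TM, -2.34 in SK and -1.80 in RJ leaf, and A_96_P033776 at -3.38 in AV, -0.77 in TM, -2.64 in SK and -1.87 in RJ leaf. Both had the same order of leaves, and neither was well above background on any fruit array. The AV value of A_96_P033776 was close to the lowest signal well above background on the AV leaf array, -3.40.

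The other 3 of the 6 had nearly equal values in AV, SK and RJ leaf. A_96_P008616 lay at -0.58 in AV, 0.84 in TM, -0.38 in SK and -0.25 in RJ leaf. A_96_P099799 lay at -2.40 in AV, -1.03 in TM, -2.33 in SK and -2.16 in RJ leaf, and A_96_P050871 at -2.43 in AV, -1.23 in TM, -2.50 in SK and -2.89 in RJ leaf. The standard deviation over the other 3 leaves was 0.16, 0.12 and 0.25 for these 3 probes, and the differences were 1.24, 1.27 and 1.37. The probes were picked by these same values, and a spread over 3 single arrays of unlike accessions does not measure error.

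On the lower side, A_96_P013536 lay at 0.82 in AV, -1.26 in TM, 0.15 in SK and 1.71 in RJ leaf, and A_96_P041411 at -0.54 in AV, -2.67 in TM, -1.64 in SK and -0.55 in RJ leaf. In fruit the first lay at -1.90 in AV, 3.02 in TM, 1.03 in SK and 1.56 in RJ, and the second at -2.68 in AV, 1.67 in TM, -1.36 in SK and -0.20 in RJ. TM had the lowest of the 4 leaves and the highest of the 4 fruits in both probes, and AV had the lowest fruit. Of the 8 probes, 5 were chosen for naming after their values were seen.

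**Figure D4:**
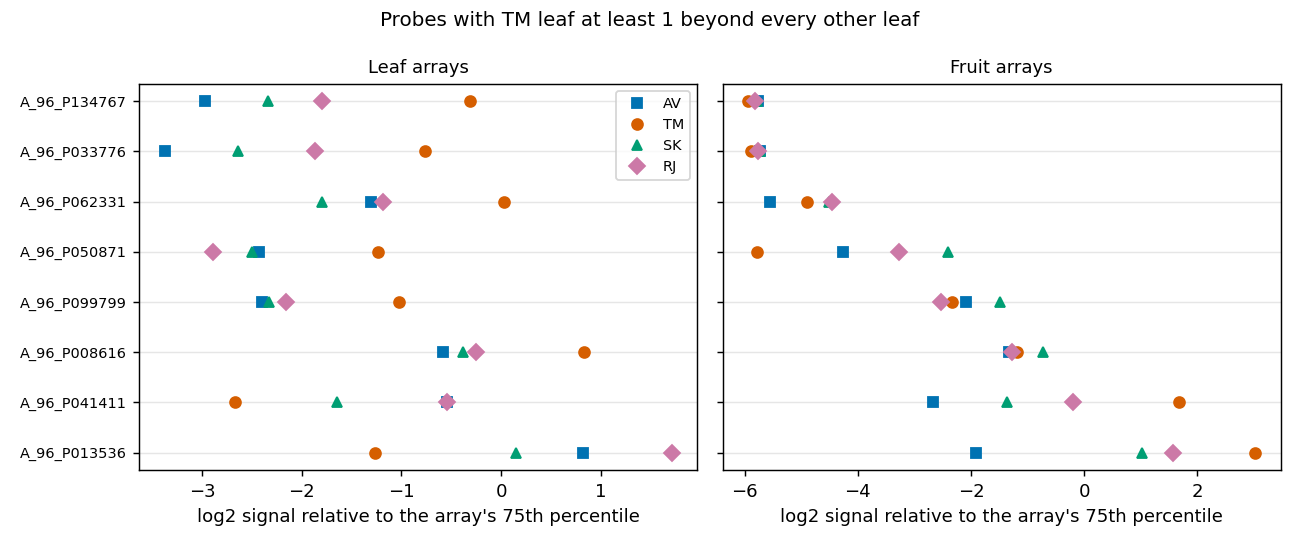
Scaled log2 signal (horizontal axes) of the 8 probes with TM leaf at least 1 log2 unit beyond every other leaf, on the leaf arrays (left) and the fruit arrays (right), with 1 point per accession. TM is the highest leaf in the upper 6 probes and the lowest in A_96_P041411 and A_96_P013536, which have their highest fruit value in TM.

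The probes without a gene that had the largest positive differences followed the order of Hsc70.1. A_96_P183904 lay at -3.03 in AV, -1.71 in SK and 1.33 in RJ leaf, and its difference of 2.71, or 6.56-fold, was the largest of all probes. A_96_P031056 (2.71), A_96_P131142 (2.35), A_96_P151446 (2.24) and A_96_P151336 (2.18) were next. In all 5 TM leaf was highest, RJ leaf lay within 0.40 of it and AV leaf was lowest. The AV values of A_96_P183904 and of A_96_P031056 (-3.10) were not far above the lowest signal well above background on that array, -3.40. Beside A_96_P013536 and A_96_P041411, the largest negative differences were those of A_96_P139147 (-1.69), A_96_P214914 (3.0-fold lower) and A_96_P219854 (-1.57). A_96_P139147 was at 0.04 in AV, -3.68 in TM, -2.56 in SK and -3.43 in RJ leaf. Its TM value was close to the lowest signal well above background on the TM leaf array, -3.80.

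The lists other than defence and heat shock had medians between -0.25 and 0.47. Of 8 genes measured for water deficit and late embryogenesis, of 13, LEA14 and pip1 were past the fold, and the ripening and drought genes ASR1 and Asr4 were at 0.45 and 0.60. Of 14 transcription factor genes measured, of 49, WRKY40 was higher and CIP1 lower, with NAM1 at 0.56, bZIP1 at 0.58 (0.01 without AV leaf) and ARF4, an auxin response factor gene, at 0.49. WRKY81 was not on that list. Of 9 carotenoid and isoprenoid genes, of 19, NCED1 alone was past the fold, and PSY2, DXS, PDS and ZDS lay between -0.13 and 0.21.

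No gene was past the fold among 10 redox genes, 7 of sugar, starch and acid, 4 of nitrogen, amino acids and polyamines, 4 of RNA silencing, 4 of protein synthesis and degradation, 4 housekeeping, 3 of light signalling, 3 of the cell cycle and 3 of flavonoids and glycoalkaloids. The argonaute gene AGO2A came nearest, at 0.94, while the other argonaute genes were at 0.23 (AGO1B), 0.20 (LOC101247032) and -0.16 (AGO4A). Among redox genes CAT2 stood alone, and APX2 (0.22), an ascorbate peroxidase gene, and the superoxide dismutase genes FESOD (0.30) and SODCC.1 (0.23) were near the median of all genes. SAM1 (-0.38), of S-adenosylmethionine synthesis, and SAMDC (0.16), a decarboxylase of the polyamine pathway, did not follow ADC and adc1. The photoreceptor genes were at -0.25 (CRY1A), -0.34 (Cry1b) and -0.04 (PHYA), with AV leaf highest in both cryptochrome genes, which were at 0.14 and 0.20 without it. In the cell cycle list, krp1 was at 0.54, CycA3 at -0.02 and cdc2A-2 at -0.35, or 0.03 without AV leaf. The glycoalkaloid genes GAME1 and gad2, also called GAME11, were at 0.47 and 0.60. The housekeeping genes were at 0.45 (TUB), 0.23 (GAPC2), 0.10 (GAPDH) and -0.27 (LeEF-1, listed as LOC544055). Over the scalings and background corrections tried, the medians of 7 of the 19 lists changed sign, namely carotenoid, cell cycle, cell wall, housekeeping, light signalling, protein synthesis and redox, so that no direction is given for these.

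**Figure D5:**
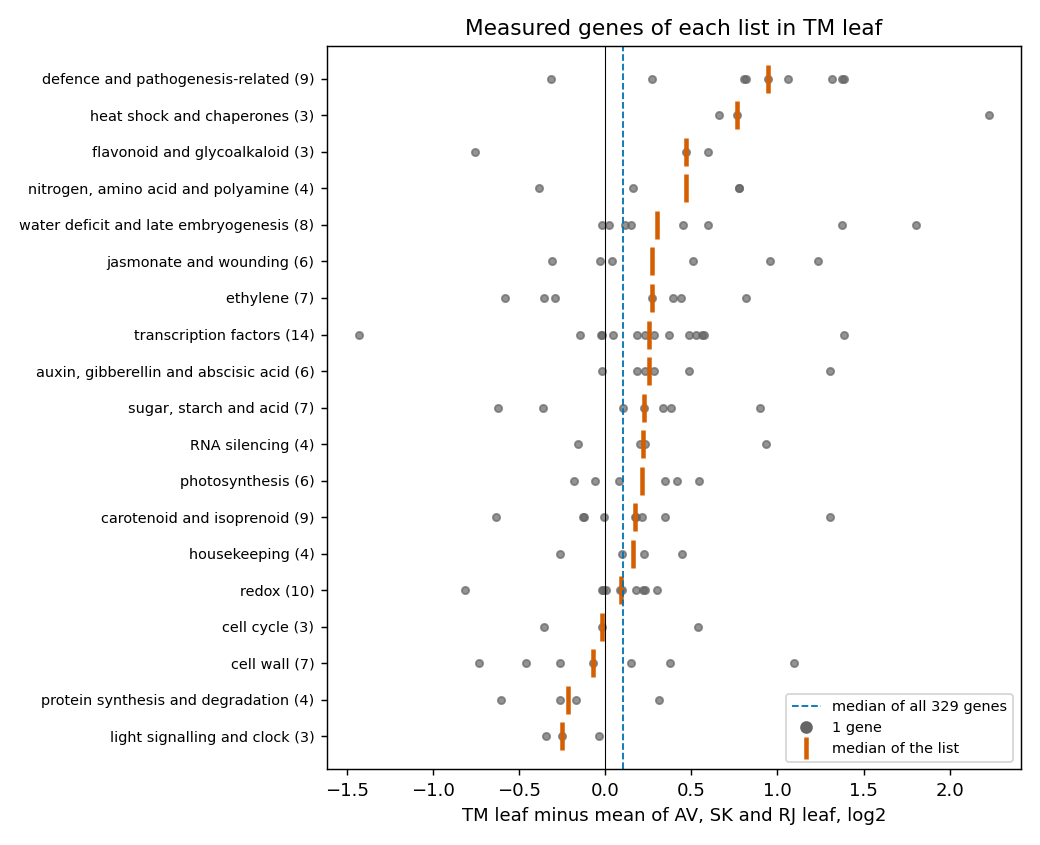
Log2 difference of TM leaf from the mean of AV, SK and RJ leaf (horizontal axis) for each measured gene of 19 lists (grey points, number of genes in brackets), with each list's median (orange bars) and the median of all 329 genes, 0.10 (dashed line). The defence median stands at 0.94 and the heat shock median at 0.77, and the other medians lie between -0.25 and 0.47.

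Outside the 4625 probes, 735 were well above background in TM leaf and on no other leaf array (2.18% of 33750), and the same count was 632 for AV leaf, 148 for SK leaf and 105 for RJ leaf. For these probes the fold is a bound, computed as the TM signal against a mean over the other leaves, in which a leaf enters with its own signal or, where that is lower, with the weakest signal that counted as well above background there. The median bound over 733 probes with values was 0.06, and 12 reached 1. The highest was A_96_P065521, at least 6.33-fold higher in TM leaf. LAPA1, the gene of a leucine aminopeptidase of the wound response, was at least 2.31-fold higher, NAC1, a transcription factor gene, at least 1.61-fold and STV3 at least 1.49-fold, and the bounds of GPS, GRAS1, PGH1, AGP-S2, sbt3, BI-GST/GPX and ST2 lay between 1.11 and 1.21. PGH1 also had a probe measured on all leaf arrays. These bounds hold for single probes. With all probes of a gene counted, GRAS1 was well above background on 3 leaf arrays and NAC1 on 2. Averaged over its probes, GRAS1 lay at -1.64 in TM and -1.76 in RJ leaf, and NAC1 at -2.22 in TM and -2.74 in RJ leaf. LAPA2, a leucine aminopeptidase gene also named LapN, was measured on all leaf arrays. It lay at -0.90 in TM leaf and between -1.04 and -0.86 in the others. Probes of related genes can share signal, and cross-hybridisation was not tested.

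In the reverse case, 4 probes were well above background on the other 3 leaf arrays and not in TM leaf (0.0119%), or 56 when background was taken as the 95th percentile of the true negative controls. None of the 4 had a gene, and they were lower in TM leaf by at least 2.18-fold to at least 3.65-fold. The corresponding number was 253 for RJ leaf, 555 for AV leaf and 762 for SK leaf. TM leaf also had the most probes above background, and its part in these counts was not tested.

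The fruit arrays were read beside the leaf values. Of the 191 higher probes, 101 also passed the background condition in all 4 fruits, and in TM fruit 3 of these were at least 1 above the mean of the other fruits and 7 at least 1 below it, where 4.86% and 6.74% of all 3085 such probes were higher and lower. In AV fruit 15 of the 101 were higher and 4 lower, beside 4.47% and 4.02% of all. In SK fruit 8 of the 101 were higher and 4 lower, beside 78 and 49 of all 3085. For RJ fruit the counts were 0 and 1, beside 13 and 14 of all 3085. Of 23 higher genes, 15 met the background condition in every fruit, of which pip1 and LOC778320 were also higher in TM fruit, by 1.43 and 1.42, and none was lower by 1. The same count over all genes was not made, so no excess or lack is read from these genes. PR1b1 was well above background in AV fruit alone, at -1.90, so that no order of the other fruits is given. These fruit values rest on the accession labels of the fruit arrays, whose assignment was not tested.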

How the data were processed

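RNA of mature leaf and red ripe fruit was labelled with Cy3 and hybridised to one-colour Agilent arrays, per the labels' protocols. Intensity was deposited for every spot, as scanner output of Agilent Feature Extraction (10.7.3.1 in the file headers), with flags for outliers, saturation and signal well above background. A second deposited table gives log2 values of the same arrays. Between leaf arrays its differences matched those of the log2 processed signal to 0.02 for at least 99.9% of probes, up to 1 constant per array, 0.354 for TM leaf against the others, while its centring per probe stays unknown. Its leaf array medians were -0.07 to 0. A further 247 columns of this table were empty and not used.

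Control spots and outlier spots were dropped, replicate spots averaged, and each array's 75th percentile subtracted on the log2 scale, taken over the 3091 probes that passed the background flag on 8 of 8 arrays. Of 3132 probes with a RefSeq accession 2936 matched 1214 genes of a RefSeq table (SLM_r2.1), used for names only, and kept probes of a gene were averaged. Of 124 genes with several kept probes, 25 had probes of opposite sign. The array design marks 8503 tomato probes as negative controls, and these were left out.

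No test was run, because each accession gave 1 leaf array. The number of arrays limits the precision. Alternatives changed the scaling, background correction (normexp with an offset of 50), filter, reference leaves, fold limit and probe choice, with limma 3.58.1 in R 4.3.3 and Python 3.11.15. The routine was tested on simulated data. The members and gene lists were chosen with earlier results of these data known. Named were the 15 highest and 15 lowest named genes outside the range of the other leaves, up to 4 per list by size of difference, the 5 highest and 5 lowest locus-only genes and unnamed probes, the 10 largest bounds each way, and measured markers. The genes DFR, PIP2-7 and gad2 were taken out of lists that they had entered through a shared name, after values were seen.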

Additional observations from a re-analysis of the deposited data

Results flagged for a closer look

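Among the probes with TM leaf at least 1 beyond every other leaf, 2 were flagged for the opposite direction in fruit. In both, all 4 fruit arrays were well above background and TM fruit lay outside the range of the other fruits. A_96_P013536 was at -2.15 in leaf and 2.79 in fruit, and A_96_P041411 at -1.75 in leaf and 3.09 in fruit. Opposite directions were not limited to these probes. With a smaller leaf difference, DAD1 was at 0.12 in leaf and -1.51 in fruit, outside the range in both. With 1 array per accession and tissue these differences between tissues were not tested.

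Of the 8503 tomato probes that the array design marks as negative controls, 455 were well above background on all leaf arrays. In TM leaf 16 of them were past the fold and higher (3.52%) and 7 lower (1.54%), beside 4.13% and 0.692% of the probes compared above.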

How the results depend on the processing

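Counts of probes and genes past the fold, 191 and 32 probes and 23 and 3 genes higher and lower, moved with the reference, the filter, the limit and the scaling. Scaling to the 75th percentile over all probes gave 113 and 56 probes and 14 genes higher. The authors' deposited log2 table gave 456 and 12 probes and 49 genes higher. Without a filter on dim probes there were 1199 and 471 probes and 60 and 16 genes, and with probes above background on all 8 arrays 101 and 11 probes and 15 genes higher. A limit of 0.58 gave 533 and 195 probes and 53 and 18 genes, and one of about 3-fold gave 30 and 4 probes and 4 and 0 genes. Against the median of the other leaves 1 gene was lower. With 1 of the other leaves left out, probes higher ran from 100 (without AV) to 344 (without RJ), probes lower from 13 to 125, genes higher from 12 to 37 and genes lower from 1 to 12. Without AV leaf 7 of the 23 higher genes and 0 of the 3 lower genes stayed past the fold. Against the 95th percentile of the true negative controls, 56 probes were above background on the other 3 leaves and not in TM leaf, in place of 4. Under loess, quantile, median and spike-in scaling, normexp and the brightest probe of a gene, these counts stayed within 1.5 times. Distances of TM leaf to single leaves are not given for these scalings. None of the 24 named genes past the fold changed sign under any of the alternatives run. No paired analysis was possible because each group held 1 array and no test was run. Signals near background limit the size of differences.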
